A study of Mus musculus with 40 samples.

Results

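The change in transcript levels from the 1-cell to the 2-cell stage was compared between parthenogenetic and fertilized mouse embryos, gene by gene. The members are the 16 untreated arrays of B6D2 embryos that were labelled fertilized or parthenogenic, out of 39 arrays with values, and they were chosen by the titles of the samples. There are 4 groups of 4 arrays: fertilized 1-cell, fertilized 2-cell, parthenogenetic 1-cell and parthenogenetic 2-cell embryos, all without α-amanitin. The quantity described is the interaction, which is the 2-cell minus 1-cell difference in parthenogenetic embryos minus the same difference in fertilized embryos, on a log2 scale, over 14916 genes. A positive interaction means that the change was higher, or the fall smaller, in the parthenogenetic embryos. The labels name KSOM as medium for 1 fertilized 1-cell sample and no medium for the other 15, and they give neither the hours of collection nor the way in which the eggs were activated. They do not say that the replicates came from separate cultures, so the p-values measure the spread between these samples, which may be technical. Medium, timing and activation cannot be told apart from origin.

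A parthenogenetic embryo develops from an activated egg without sperm, so it carries maternal chromosomes only, lacks a Y chromosome and lacks the paternal alleles of imprinted genes, which are expressed from the copy inherited from a single parent. In the mouse the egg enters development with stored maternal mRNA, much of which is degraded by the 2-cell stage, while the main wave of transcription from the embryo's own genome, zygotic genome activation, takes place in the 2-cell embryo. The toxin α-amanitin, which stops RNA polymerase II, blocks that wave.

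Values are log2 of the array signal plus a constant of 6.9, called the level here, and a gene is called where the Benjamini-Hochberg adjusted p of limma is under 0.05. The overall median level was 5.34, and where a group lies below it the constant sets part of a difference. Since the labelled material was poly(A) RNA and each array is scaled to the others, a shorter poly(A) tail, fewer copies and a smaller share of the embryo's mRNA cannot be told apart, and in these bulk samples neither can fewer embryos or cells with a transcript and less RNA in each. Within a group, the arrays had correlations of 0.956 to 0.975 over genes. Fertilized 1-cell replicate 1 stood apart on principal component 3, at 7.713 against 26.31 to 33.95 for its group, and 5293 interactions were called without it. The 18S ribosomal RNA control read 10.25 ± 0.59 (SD, n = 4) in fertilized and 11.22 ± 0.24 (SD, n = 4) in parthenogenetic 2-cell embryos, with an exact 2-sided permutation p of 0.0571 (adjusted 0.19 over 10 control tests). The hybridization controls did not overlap at that stage, at 9.82 to 10.02 in fertilized and 10.3 to 10.38 in parthenogenetic embryos (difference 0.45, exact permutation p = 0.0286, adjusted 0.143). The poly(A) control transcripts read 6.38 ± 0.45 in fertilized and 8.03 ± 0.15 in parthenogenetic 1-cell embryos (SD, n = 4 each; exact permutation p = 0.0286, the smallest that 4 against 4 arrays allow, adjusted 0.143), and the part of these controls in the results was not tested.

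The interaction was called for 5286 of 14916 genes (35.4%), of which 2949 were positive (19.8%) and 2337 negative (15.7%). At least 2-fold interactions were called for 1585 genes in the positive direction (10.6%) and 1648 in the negative (11.0%), together 21.7% of all genes. Over all genes the median interaction was 0.108, against 0.274 with values as deposited and -0.0372 with median centring. The split between positive and negative calls moved with that scaling, to 3511 and 2057 with values as deposited and to 1874 and 2863 with median centring. For some gene groups the counts under 1 or both of these scalings are given, and a group without them was not necessarily unchanged. Between the stages 8954 genes were called in fertilized embryos (60.0%; 3849 higher, 25.8%, and 5105 lower, 34.2%) and 7328 in parthenogenetic embryos (49.1%; 3238 higher, 21.7%, and 4090 lower, 27.4%). Parthenogenetic and fertilized embryos differed in 3040 genes at the 1-cell stage (20.4%; 1620 higher, 10.9%, and 1420 lower, 9.52%) and in 7066 at the 2-cell stage (47.4%; 3938 higher, 26.4%, and 3128 lower, 21.0%).

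On the first principal component of the 16 arrays, which held 66.2% of the variance, all 8 1-cell arrays lay between -79.84 and -75.18. The fertilized 2-cell arrays reached 102.7 to 112.5 on it and the parthenogenetic 2-cell arrays 42.74 to 50.35. The second component, with 13% of the variance, put the parthenogenetic 2-cell arrays at 53.24 to 60.11 and the fertilized 2-cell arrays at -42.42 to -31.15. The groups did not overlap on either component at the 2-cell stage, and the parthenogenetic arrays lay between the 1-cell arrays and the fertilized 2-cell arrays on the first but outside their range on the second.

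**Figure D1:**
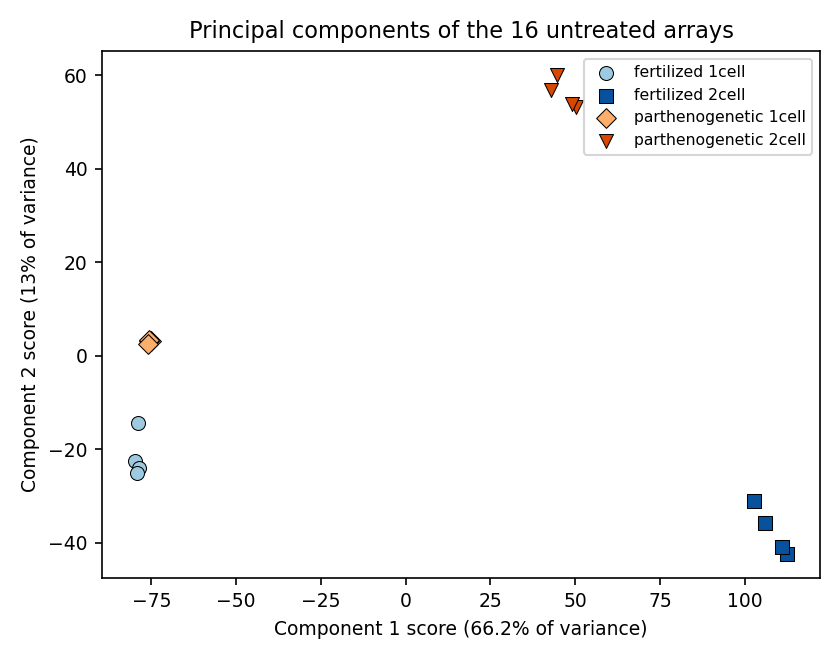
Scores of the 16 untreated arrays on principal components 1 (horizontal, 66.2% of variance) and 2 (vertical, 13%), 1 point per array, coloured by group. Parthenogenetic 2-cell arrays sit between 42.74 and 50.35 on component 1, below the fertilized 2-cell arrays at 102.7 to 112.5.

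Stage changes of the same sign but smaller size in parthenogenetic embryos made up the largest groups of called interactions. Among the 2949 positive genes, 1407 fell in both origins, with a median fall of -2.20 in fertilized and -0.98 in parthenogenetic embryos, and 899 fell in fertilized embryos and were not called in parthenogenetic embryos (medians -1.01 and -0.01). Among the 2337 negative genes, 867 rose in both origins (medians 2.82 and 1.30) and 801 rose in fertilized embryos and were not called in parthenogenetic embryos. Opposite stage changes, both called, were found in a minority: 200 genes rose in fertilized and fell in parthenogenetic embryos, and 188 did the reverse. A further 288 genes with a positive interaction rose in parthenogenetic embryos and were not called in fertilized embryos. These counts describe the interaction and share its arrays, so they are no separate evidence for it. Across genes the stage changes of the 2 origins, which share no array, had a Pearson correlation of 0.79 (14916 genes, which are not independent replicates).

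**Figure D2:**
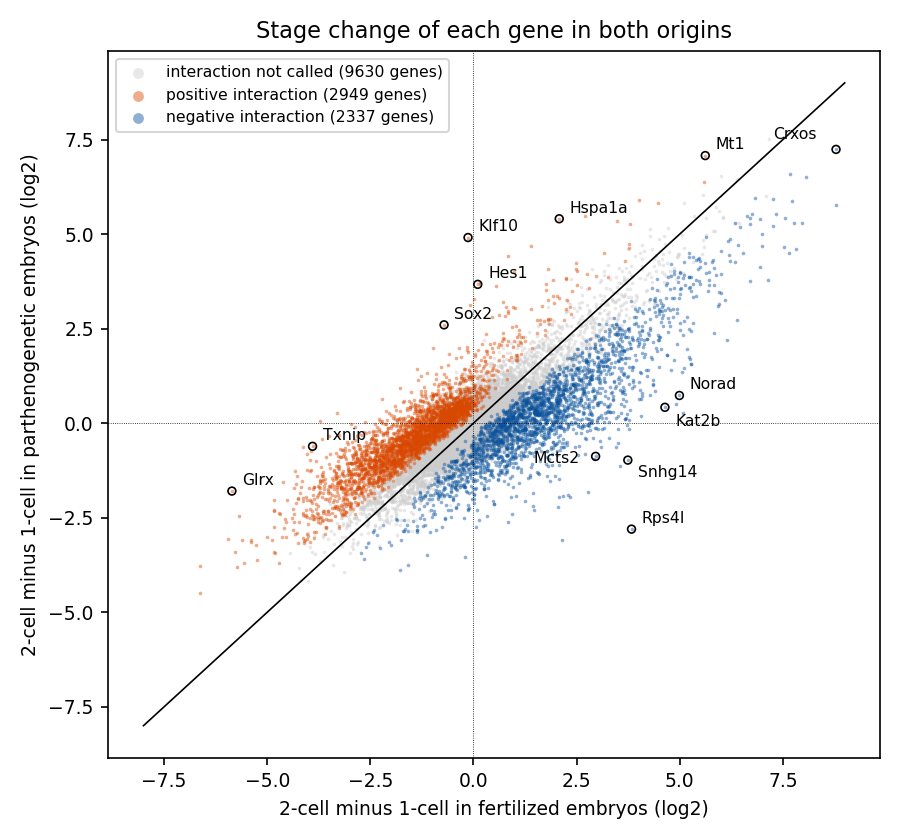
Stage change of each of 14916 genes in fertilized (horizontal) and parthenogenetic embryos (vertical), both in log2 units, with the line of equal change. Orange points (2949 genes) are positive and blue points (2337 genes) negative called interactions, and circles mark genes named in the text, with Klf10 far above and Rps4l far below the line.

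Most of the called interactions went with a difference at the 2-cell stage. Of the 2949 positive genes, 61.6% had a called difference between origins in 2-cell embryos and none in 1-cell embryos, 24.3% were called at both and 9.83% at the 1-cell stage alone. Of the 2337 negative genes, the shares were 67.6%, 20.1% and 9.07%. Metallothioneins and Txnip, described below, were among the genes that differed at the 1-cell stage.

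Arrays outside the 16 gave classes of transcripts that share no array with the interaction, although the classes share arrays with each other. In 2-cell embryos made by somatic cell nuclear transfer (SCNT), 3590 genes were at least 2-fold lower with α-amanitin (24.1%) and 3922 at least 2-fold higher (26.3%). Among those lower with amanitin, whose levels depended on transcription there, 1604 interactions were negative (44.7%) and 208 positive (5.79%). Their median stage change was 1.33 in fertilized and 0.51 in parthenogenetic embryos. Among those higher with amanitin, 1819 interactions were positive (46.4%) and 103 negative (2.63%), and the median stage change was -0.88 in fertilized and -0.35 in parthenogenetic embryos. With median centring the 1819 positive interactions became 1100.

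The stage change of SCNT embryos divided the genes in the same way. Of 2911 genes that rose at least 2-fold between the SCNT stages (19.5%), 1416 had a negative interaction (48.6%) and 87 a positive one (2.99%), with median rises of 1.79 in fertilized and 0.84 in parthenogenetic embryos. Of 3481 genes that fell at least 2-fold there (23.3%), 1830 had a positive interaction (52.6%) and 105 a negative one (3.02%), with median falls of -1.56 and -0.89. Fertilized embryos kept in α-amanitin gave a further class of 1572 genes that fell at least 2-fold between the stages without polymerase II transcription (10.5%). In that class 412 interactions were positive (26.2%) and 348 negative (22.1%), and the median stage changes of the 2 origins were -0.70 and -0.70. The 605 genes that fell in SCNT embryos and also under amanitin had a median change of -2.29 in fertilized and -1.64 in parthenogenetic embryos, and the 2352 that fell in SCNT embryos but did not fall under amanitin had -1.38 and -0.71.

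Seen from the interaction, 1286 of the 1648 genes with an at least 2-fold negative interaction were in the SCNT class lower with amanitin (78.0%, against 24.1% of all genes). The genes that rose in parthenogenetic and not in fertilized embryos, 476 with a positive interaction, held 62 members of that class (13%) and 209 of the class higher with amanitin (43.9%, against 26.3% of all genes). Of the same 476 genes, 19 rose at least 2-fold between the SCNT stages (3.99%, against 19.5% of all genes).

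Paternally expressed imprinted genes, of which a parthenogenetic embryo lacks the paternal allele, were read from a list of 32, of which 23 were measured. Of these 4 had a negative interaction, Mcts2, Gab1, Jade1 and Impact, 4 a positive one and 15 none, with a median of -0.03 against 0.108 over all genes. The share of called members, 8 of 23, was near the 35.4% of all genes. All 4 negative members rose in fertilized embryos, none rose in parthenogenetic embryos, and none had a called 1-cell difference between origins (adjusted p from 0.23 to 0.94).

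Mcts2, a retrogene in an intron of H13 that is transcribed from the paternal copy, read 5.29, 5.71, 6.0 and 5.58 on the fertilized 1-cell arrays and 8.80, 8.66, 8.43 and 8.54 at the 2-cell stage. On the parthenogenetic arrays it read 5.67, 5.80, 5.50 and 5.45, then 3.66, 5.32, 5.38 and 4.56. The 2-cell groups did not overlap, and the interaction was -3.84 (SE 0.38, adjusted p = 1.3e-10). In SCNT embryos it averaged 5.62 at the 1-cell and 9.10 ± 0.08 (SD, n = 4) at the 2-cell stage. With α-amanitin the mean of the fertilized 2-cell arrays was 5.24 and that of the SCNT 2-cell arrays 5.47. A rise in SCNT embryos was common: of all genes with an at least 2-fold negative interaction, 68.8% rose at least 2-fold there.

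Jade1, a subunit of a histone acetyltransferase complex, read between 5.32 and 5.46 on the fertilized 1-cell arrays and 8.46, 8.79, 8.79 and 9.04 on the fertilized 2-cell arrays. The parthenogenetic arrays read 4.87, 4.73, 5.58 and 6.0 at the 1-cell and 5.96, 6.10, 5.33 and 6.20 at the 2-cell stage, so every fertilized 2-cell array was above every parthenogenetic one. The interaction of Jade1 was -2.78 (SE 0.38, adjusted p = 1.8e-07), and its other 3 probe sets gave -4.02, -4.26 and -2.65. Gab1, an adaptor of growth factor receptors, rose by 1.55 in fertilized embryos and fell by 1.32 in parthenogenetic embryos, from 6.32, 6.68, 6.87 and 6.47 to 5.08, 5.72, 5.49 and 4.77. Its fertilized 2-cell arrays lay between 7.30 and 7.89 without overlap, and the interaction was -2.87 (SE 0.39, adjusted p = 1.3e-07).

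Impact, an inhibitor of the eIF2α kinase GCN2, read 6.66, 6.90, 7.25 and 7.22 in fertilized 2-cell embryos and 4.31, 5.44, 4.86 and 5.50 in parthenogenetic 2-cell embryos. The interaction was -2.07 (SE 0.58, adjusted p = 0.0041). A second probe set kept for Impact gave -0.68. SCNT 2-cell embryos averaged 8.94 for Jade1, 8.22 for Gab1 and 8.84 for Impact, each above all 4 parthenogenetic 2-cell arrays. These levels are a description, since SCNT embryos were not tested against parthenogenetic ones here.

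The same pattern was shown by Snhg14, which is not on the list and was named for the size of its interaction. It is the long noncoding RNA of the imprinted Snrpn and Ube3a region, transcribed from the paternal chromosome. Fertilized arrays read 4.20, 4.09, 2.89 and 3.90 at the 1-cell and 7.51, 7.29, 7.43 and 7.82 at the 2-cell stage. Parthenogenetic arrays read 4.71, 4.95, 3.04 and 4.27, then 3.44, 2.85, 3.83 and 2.95, all below the overall median. The interaction was -4.72 (SE 0.57, adjusted p = 1.2e-08), and SCNT 2-cell embryos averaged 8.08 ± 0.35 (SD, n = 4). Peg3, a paternally expressed zinc finger gene, gave -0.05 (SE 0.27, not called).

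The 4 paternally expressed genes with a positive interaction were Inpp5f (0.93), Xist (0.85), Mest (0.80) and Zim3 (0.57). Xist, the noncoding RNA that silences an X chromosome, rose by 0.90 in fertilized embryos, from 6.67, 6.86, 7.36 and 6.75 to 7.61, 7.79, 7.79 and 8.05. In parthenogenetic embryos it rose by 1.75, from 6.43, 6.33, 6.69 and 6.54 to 8.55, 8.10, 8.26 and 8.10, above every fertilized 2-cell array (interaction SE 0.26, adjusted p = 0.0079). Among 479 X-linked genes tested, 98 interactions were positive (20.5%) and 62 negative (12.9%), and among 14399 autosomal genes 2846 (19.8%) and 2268 (15.8%). The median 2-cell difference was 0.19 for X-linked and 0.07 for autosomal genes, which was not tested.

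Of 29 maternally expressed imprinted genes 25 were measured, with 7 positive and 1 negative interactions and a median of 0.09. The share called was 32.0%, near the 35.4% of all genes. The 5 largest positive values belonged to Mirg (1.5), H13 (1.42), Ascl2 (1.27), Copg2 (1.14) and Grb10 (0.98), of which Mirg was called in 19 and Ascl2 in 22 of 27 settings. With median centring 5 were positive and 2 negative, and the list median was -0.10. H13, the host gene of Mcts2 and a signal peptide peptidase, fell from between 10.06 and 10.22 to between 6.01 and 6.50 in fertilized embryos and from between 10.15 and 10.27 to between 7.57 and 7.99 in parthenogenetic embryos. Its probe sets disagree: the other 3 kept gave -0.25, -0.74 and -1.87, and with the mean of the probe sets kept the interaction of H13 was -0.36 and not called. Igf2r, a receptor that clears IGF2, was the negative member at -1.62 (SE 0.38, adjusted p = 0.00064). It rose in fertilized embryos from between 6.50 and 7.17 to between 8.91 and 9.32, while the parthenogenetic 2-cell arrays read 7.26, 7.97, 7.87 and 7.57, below all fertilized ones.

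Y-linked genes, which a parthenogenetic embryo lacks, gave few measured values. Eif2s3y, a translation initiation subunit gene on the Y chromosome, read 6.64, 6.83, 7.34 and 7.41 on the fertilized 2-cell arrays and between 2.87 and 2.99 on the parthenogenetic 2-cell arrays. All 8 1-cell arrays read between 2.89 and 4.21. The interaction was -4.05 (SE 0.44), but the probe set passed the filter on low values through the fertilized 2-cell arrays alone, so a difference was built into its being tested. It was dropped by that filter when any fertilized 2-cell array was left out or when the filter was set on the mean. Without a filter another probe set, of higher mean over all arrays, stood for the gene, at 0.06 and not called. Of 12 Y-linked genes 5 were measured, with a list median of -0.11 and 3 not called, and Usp9y was also negative (-1.25, SE 0.47, adjusted p = 0.036, called in 16 of 27 settings).

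**Figure D3:**
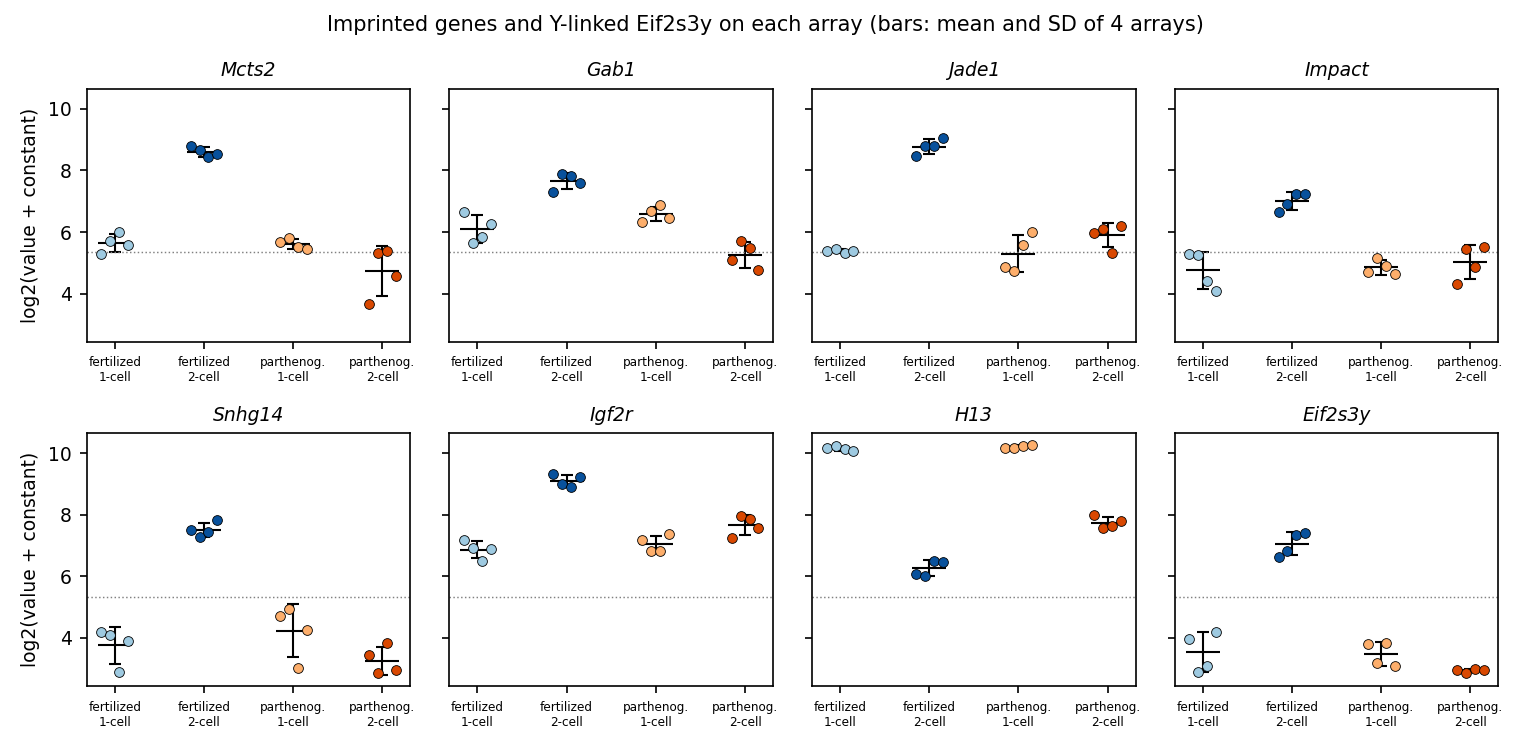
Level of 7 imprinted genes and Y-linked Eif2s3y on each of the 16 arrays, as log2 of signal plus the constant (vertical), 1 panel per gene, with mean and SD of 4 arrays and the overall median as a dotted line. Mcts2, Gab1, Jade1, Impact, Snhg14, Igf2r and Eif2s3y are higher on all 4 fertilized than on all 4 parthenogenetic 2-cell arrays, and H13 lower.

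Klf10, Hes1, Ier3, Neurog2 and Cdkn2c rose in parthenogenetic embryos and were not called between the fertilized stages. The largest positive interaction among the genes named belonged to Klf10, a zinc finger gene induced by TGF-β. Klf10 read 5.77, 5.24, 5.15 and 4.86 in parthenogenetic 1-cell embryos and 10.29, 10.16, 10.30 and 9.92 at the 2-cell stage. In fertilized embryos it read 6.40, 6.96, 6.96 and 6.93, then 6.87, 6.58, 6.79 and 6.48, with no called change. The interaction was 5.04 (SE 0.34, adjusted p = 9.7e-15). Parthenogenetic embryos were lower by 1.55 at the 1-cell and higher by 3.49 at the 2-cell stage, and SCNT embryos averaged 6.72 and 6.36.

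Hes1, a repressor that Notch signalling induces, read between 8.25 and 8.97 in parthenogenetic 2-cell embryos and between 4.38 and 5.79 on the other 12 arrays, 1 of which, a fertilized 2-cell array, read 4.61. Its interaction was 3.57 (SE 0.52, adjusted p = 5.9e-07). Ier3, an immediate early gene linked to survival, rose from 4.61, 5.03, 5.21 and 4.78 to 8.80, 7.84, 8.81 and 9.01 in parthenogenetic embryos, while fertilized arrays stayed between 5.46 and 6.32 (interaction 3.55, SE 0.35). Ier2 rose in both origins, from between 3.33 and 5.09 to between 6.0 and 7.34 in fertilized and from between 3.21 and 4.86 to between 8.92 and 10.05 in parthenogenetic embryos (interaction 2.78, SE 0.59). Neurog2, a proneural factor, rose by 3.64 (interaction 3.09, SE 0.53), and Cdkn2c, an inhibitor of CDK4 and CDK6, by 3.13 (interaction 3.21, SE 0.30). Neither was called between the fertilized stages.

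Immediate early genes respond within minutes to growth factors or stress, and their list held both directions, with 7 positive and 5 negative interactions among 31 measured members and a median of 0.50, against 0.108 over all genes. The share called was 38.7%, near the 35.4% of all genes. In parthenogenetic embryos 9 members rose and 5 fell (21.7% and 27.4% of all genes). In fertilized embryos 6 rose and 9 fell (25.8% and 34.2% of all genes). Id1 (2.25) and Maff (1.27) were also positive, Maff called in 23 of 27 settings. Myc, a driver of growth and ribosome production, was negative at -3.11 (SE 0.60, adjusted p = 5.9e-05). Fertilized 2-cell embryos read 7.51, 7.52, 7.41 and 7.17 for Myc, parthenogenetic ones 3.99, 4.70, 4.65 and 4.53, and no 1-cell array exceeded 4.96. Klf2 (-2.83) and Sgk1 (-1.77) were also negative.

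The inducible HSP70 genes Hspa1a and Hspa1b rose more in parthenogenetic embryos. Hspa1a and Hspa1b are neighbouring, near-identical genes for the inducible chaperone HSP70, so their probe sets may share transcripts, and inducible HSP70 is among the earliest products of transcription in mouse embryos. The RefSeq sequences of 250 bases before their start sites (GRCm38.p6) are shown because both genes gave the same pattern. They lie at chr17:34972157-34972406 for Hspa1a and chr17:34959239-34959488 for Hspa1b, both on the minus strand, and differ at 3 of 250 positions (98.8% identical). Capitals mark the match to a heat shock element core of a pair of inverted units, GAANNTTC, which reads the same on both strands.
Hspa1a: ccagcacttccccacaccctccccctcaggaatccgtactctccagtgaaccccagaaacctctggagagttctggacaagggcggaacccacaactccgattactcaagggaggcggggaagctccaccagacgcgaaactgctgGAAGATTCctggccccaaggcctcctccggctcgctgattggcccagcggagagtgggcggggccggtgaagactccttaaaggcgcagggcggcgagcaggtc
Hspa1b: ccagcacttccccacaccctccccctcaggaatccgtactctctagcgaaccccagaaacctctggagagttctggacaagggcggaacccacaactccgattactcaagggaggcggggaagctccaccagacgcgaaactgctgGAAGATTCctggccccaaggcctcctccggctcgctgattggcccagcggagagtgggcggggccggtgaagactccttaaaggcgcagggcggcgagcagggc
Each sequence held 1 match, 104 to 97 bases before the start. Among 32851 RefSeq promoters, 6.69% held this motif at least once in the same window, and the other orientation, TTCNNGAA, was found in 7.17% of them and in neither of these genes. A match describes letters and is no evidence that a factor binds there.

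Hspa1a read 4.79, 5.97, 4.87 and 5.31 in parthenogenetic 1-cell embryos and 10.56, 10.79, 10.63 and 10.58 at the 2-cell stage. In fertilized embryos it read 5.47, 5.96, 6.17 and 6.18, then 7.90, 8.17, 8.03 and 7.99. The gene thus rose in both, by 5.41 and 2.08, with an interaction of 3.33 (SE 0.41, adjusted p = 1.9e-08) and no overlap of the 2-cell groups. Hspa1b was lower in parthenogenetic embryos at the 1-cell stage, at 7.42, 7.37, 7.22 and 6.78 against 8.83, 8.85, 9.01 and 8.72. It was higher at the 2-cell stage, at 11.63, 11.62, 11.65 and 11.59 against 9.58, 9.78, 9.65 and 9.77 (interaction 3.58, SE 0.25, adjusted p = 2.7e-14). Its other probe sets gave 3.63 and 3.73. With α-amanitin, SCNT 2-cell embryos averaged 4.23 for Hspa1a and 5.79 for Hspa1b, against 8.80 and 9.90 without it.

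Other chaperones did not follow as a block. Of 41 heat shock and chaperone genes measured, 13 were positive and 14 negative (65.9% called, against 35.4% of all genes), with a median of -0.12. With values as deposited 13 were positive and 12 negative, and with median centring 11 and 19. Dnajb4 (2.28), an HSP40 cochaperone, Hspa2 (2.13) and Hsp90b1 (1.86), the HSP90 of the endoplasmic reticulum, were positive. Unlike Hspa1a, Dnajb4 fell in both origins and fell less in parthenogenetic embryos. It read 12.23 to 12.52, then 8.14 to 8.80 in fertilized and 12.17 to 12.26, then 10.45 to 10.68 in parthenogenetic embryos. Bag1 (-1.86), a nucleotide exchange factor of HSP70, Dnajb9 (-1.36), the chaperonin subunit Cct6a (-1.01) and the HSP90 partner Cdc37 (-0.99) were negative. Hsf2, a heat shock transcription factor, gave 0.11 (SE 0.29, not called).

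Metallothioneins, small proteins that bind zinc, rose more in parthenogenetic embryos from a lower start. The 250 bases before the start of Mt2 (chr8:94172368-94172617, plus strand) are shown with the metal response core TGCNCNC, searched on both strands, in capitals.
Mt2: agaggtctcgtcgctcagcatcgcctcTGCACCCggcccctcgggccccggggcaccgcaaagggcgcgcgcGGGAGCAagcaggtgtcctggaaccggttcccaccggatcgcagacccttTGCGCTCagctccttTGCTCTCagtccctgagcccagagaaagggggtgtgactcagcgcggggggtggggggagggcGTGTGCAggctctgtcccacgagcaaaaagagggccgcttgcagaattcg
The window held 5 matches, a number reached by 0.344% of the 32851 promoters, while 44.4% held at least 1. Mt2 read 8.61, 8.64, 8.76 and 8.84 in fertilized 1-cell embryos and 6.75, 6.75, 7.02 and 6.80 in parthenogenetic ones. At the 2-cell stage it read 13.33, 13.52, 13.12 and 12.80 against 12.64, 12.67, 12.67 and 12.68. Parthenogenetic embryos were lower at both stages, by -1.88 and -0.53, so the interaction of 1.36 (SE 0.24, adjusted p = 1.1e-05) came from the 1-cell stage. Mt1 rose by 5.62 in fertilized and by 7.08 in parthenogenetic embryos. It was lower by -2.10 in parthenogenetic embryos at the 1-cell stage and gave -0.65, not called, at the 2-cell stage. Its interaction of 1.46 (SE 0.40, adjusted p = 0.0032) was 0.63 and not called with the mean of its probe sets.

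Txnip, which binds thioredoxin and responds to glucose, differed at the 1-cell stage. Its level was 11.09, 12.15, 12 and 12.27 in fertilized and 8.43, 8.56, 8.42 and 8.57 in parthenogenetic 1-cell embryos. At the 2-cell stage the arrays overlapped, at 7.91, 7.55, 8.25 and 8.19 against 8.04, 8.14, 7.10 and 8.25. The interaction was 3.29 (SE 0.31, adjusted p = 5.6e-11), with a 1-cell difference of -3.38 and a 2-cell difference of -0.10 that was not called. Glrx, a glutaredoxin, fell from between 10.51 and 10.95 to between 3.79 and 5.70 in fertilized embryos and from between 8.82 and 9.0 to between 6.85 and 7.39 in parthenogenetic embryos (interaction 4.06, SE 0.37). In the list of 27 metallothionein and redox genes 6 were positive and 6 negative (44.4% called, against 35.4% of all genes). With values as deposited 8 were positive and 6 negative, and with median centring 6 and 9. Gclc (-1.91), which makes glutathione, and mitochondrial Prdx3 (-1.51) were among the negative ones. The poly(A) control transcripts had a higher mean in parthenogenetic than in fertilized 1-cell embryos, as given above, and their part in these 1-cell differences was not tested.

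**Figure D4:**
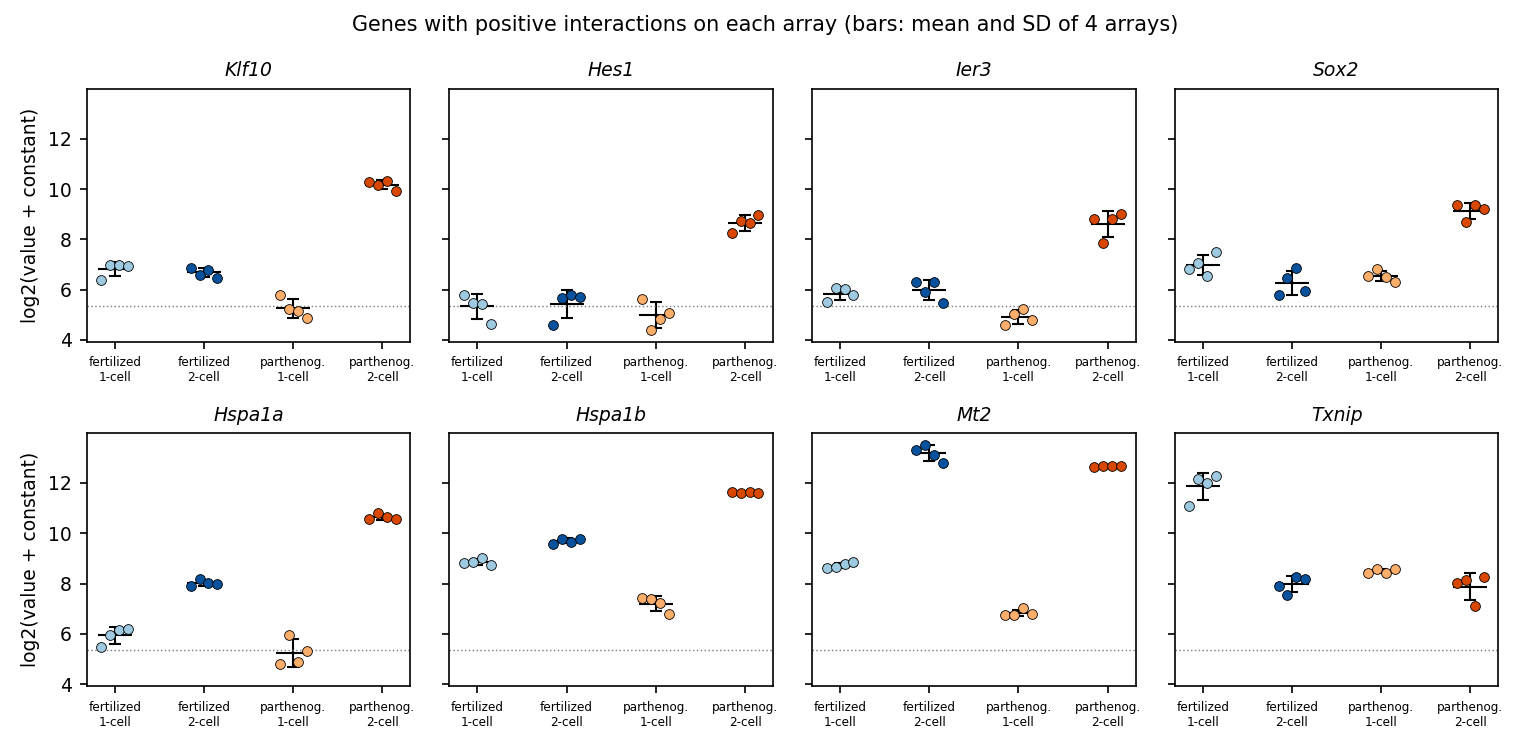
Level of 8 genes with positive interactions on each of the 16 arrays, as log2 of signal plus the constant (vertical), with mean and SD of 4 arrays. Klf10, Hes1, Ier3, Sox2, Hspa1a and Hspa1b are highest on the 4 parthenogenetic 2-cell arrays. Mt2 is lowest on the parthenogenetic 1-cell arrays, and Txnip is highest on the fertilized 1-cell arrays.

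Maternal transcripts of the oocyte fell less in parthenogenetic embryos. Of 45 oocyte genes measured, 33 had a positive interaction and 1 a negative one (75.6% called, against 35.4% of all genes), with a median of 1.32. Values as deposited gave 37 positive and none negative, and median centring 32 and 1. The median stage change of the list was -2.50 in fertilized and -0.98 in parthenogenetic embryos. Of its members 37 and 29 fell, against 34.2% and 27.4% of all genes. At the 1-cell stage 2 were higher and 15 lower in parthenogenetic embryos (10.9% and 9.52% of all genes). At the 2-cell stage 33 were higher and 3 lower (26.4% and 21.0% of all genes).

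Rfpl4, an oocyte RING finger gene, read between 12.78 and 12.92 at the 1-cell stage in fertilized embryos and 9.12, 8.62, 9.74 and 9.85 at the 2-cell stage. In parthenogenetic embryos it read between 12.73 and 12.88, then 12.63, 12.02, 12.63 and 12.55, with a change of -0.35 that was not called (interaction 3.15, SE 0.25, adjusted p = 8.4e-13). Oas1e, an oocyte member of the oligoadenylate synthetase family, gave 3.24, and Pabpn1l, a poly(A) binding protein needed for maternal mRNA decay, 2.88. H1f8, the oocyte linker histone, gave 2.54, and Zar1, which binds maternal mRNA, 2.40. Gdf9, a growth factor secreted by the oocyte, fell from between 12.43 and 12.69 to between 10.58 and 10.78 in fertilized embryos and from between 11.95 and 12.15 to between 11.55 and 11.68 in parthenogenetic embryos (interaction 1.47, SE 0.12). Mos, the kinase that holds the egg at metaphase, was lower by -1.09 in parthenogenetic embryos at the 1-cell stage, at 6.24, 6.29, 5.96 and 6.39 against 7.24, 7.44, 7.28 and 7.30. It fell below the overall median in both origins (interaction 1.49, SE 0.34). The zona pellucida gene Zp3 gave 0.28 (SE 0.16, not called) and -0.05 with median centring, being lower in parthenogenetic embryos by -1.15 and -0.88 at the 2 stages. Dppa3, the negative member (-0.39), was called in 6 of 27 settings.

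The machinery that degrades maternal mRNA was measured with 41 genes, of which 14 were positive and 6 negative (48.8% called, against 35.4% of all genes). Btg4, the adaptor that recruits the CCR4-NOT deadenylase to maternal mRNA, fell from between 13.49 and 13.58 to between 11.54 and 11.99 in fertilized embryos. In parthenogenetic embryos it fell from between 13.62 and 13.66 to between 12.85 and 13.06, without overlap at the 2-cell stage (interaction 1.06, SE 0.11, adjusted p = 6.5e-10). Cnot6l (1.35), a deadenylase, Pan2 (1.14) and Zfp36l2 (1.49), which directs AU-rich mRNA to decay, were also positive. Btg1 (-1.61), Pabpc1 (-1.06) and the uridyl transferases Tut4 (-1.0, called in 25 of 27 settings) and Tut7 (-0.72) were negative. With median centring the list held 8 positive and 7 negative members. Other genes that fell only in fertilized embryos by call were Eef2k (2.77), the kinase that inhibits translation elongation, the exonuclease Exo5 (2.95), Fbxo30 (3.58) and Hoxa7 (3.79), and Psenen (3.49), a γ-secretase subunit, changed by -4.12 in fertilized and by -0.64 in parthenogenetic embryos, both called.

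Ribosome production genes rose less in parthenogenetic embryos. Of 107 ribosome biogenesis genes measured, 66 had a negative and 2 a positive interaction (63.6% called, against 35.4% of all genes), with a median of -0.92. Values as deposited gave 60 and 3, and median centring 75 and 0. In fertilized embryos 84 of the 107 rose and in parthenogenetic embryos 62 (25.8% and 21.7% of all genes), and the median stage changes were 1.60 and 0.55. Parthenogenetic embryos were lower in 44 of the 107 at the 1-cell stage and in 93 at the 2-cell stage (9.52% and 21.0% of all genes). Ddx21, an RNA helicase of the nucleolus, read 8.05, 8.19, 8.12 and 8.33, then 10.91, 11.09, 10.90 and 11.08 in fertilized embryos. In parthenogenetic embryos it read 7.50, 7.97, 7.72 and 7.43, then 7.57, 7.91, 7.21 and 7.23, without a called change (interaction -3.0, SE 0.22, adjusted p = 6.3e-14). Sdad1 (-3.30), Tsr2 (-2.88) and Ddx49 (-4.03) belonged to the same list, and so did Tsr1 (-2.68), which rose in both.

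Ribosomal protein genes gave 26 negative interactions and no positive one among 46 measured of 83 listed (56.5% called, against 35.4% of all genes). The median was -0.73, with 23 and 32 negative under the 2 other scalings. At an unadjusted p under 0.05 limma gave 0 positive members of this list. Many of these genes have near-identical copies, so their probe sets are uncertain. In fertilized embryos 42 and in parthenogenetic embryos 39 of them rose (25.8% and 21.7% of all genes), by a median of 3.03 and 2.13. Rps19 (-2.07) and Rpl37a (-2.28) rose in both, Rpl27a (-2.51) rose in fertilized embryos, and Rps4x rose in both with an interaction of -0.02, not called. The outlying member was Rps4l, a homologue of Rps4x, which read 5.97, 5.43, 5.62 and 5.66 in fertilized 1-cell and 9.90, 9.60, 9.26 and 9.24 in fertilized 2-cell embryos. In parthenogenetic embryos it read 6.04, 6.33, 6.32 and 6.35, then 3.48, 3.39, 3.21 and 3.76. Its interaction of -6.63 (SE 0.52, adjusted p = 4.9e-13) was the largest negative value among the genes named, and SCNT 2-cell embryos averaged 10.36 ± 0.11 (SD, n = 4).

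Translation factors (21 negative and 5 positive of 46), the proteasome (22 and 10 of 47), splicing (26 and 10 of 78), oxidative phosphorylation (28 and 10 of 77) and mitochondrial ribosomal proteins (27 and 7 of 76) had medians between -0.49 and -0.30. Between 44.7% and 68.1% of each list was called, against 35.4% of all genes. In each of these lists negative members outnumbered positive ones under both other scalings too. Psma6 and Psmb4, subunits of the 20S proteasome, rose by 1.26 and 1.86 in fertilized and fell by 2.05 and 1.52 in parthenogenetic embryos (interactions -3.30 and -3.38). Abce1, which recycles ribosomes, gave -3.11, and the initiation factor subunit Eif3h -2.54. Nucleotide synthesis had 14 negative and 3 positive of 27 (63.0% called), with a median of -0.78. Nme1, a nucleoside diphosphate kinase, read 9.38, 9.63, 9.39 and 9.14 in fertilized 2-cell embryos and 5.76, 6.09, 6.09 and 6.06 in parthenogenetic ones (interaction -3.65, SE 0.36). The 18S control had a lower mean in fertilized than in parthenogenetic 2-cell embryos, as given above, and its part in these lists was not tested.

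**Figure D5:**
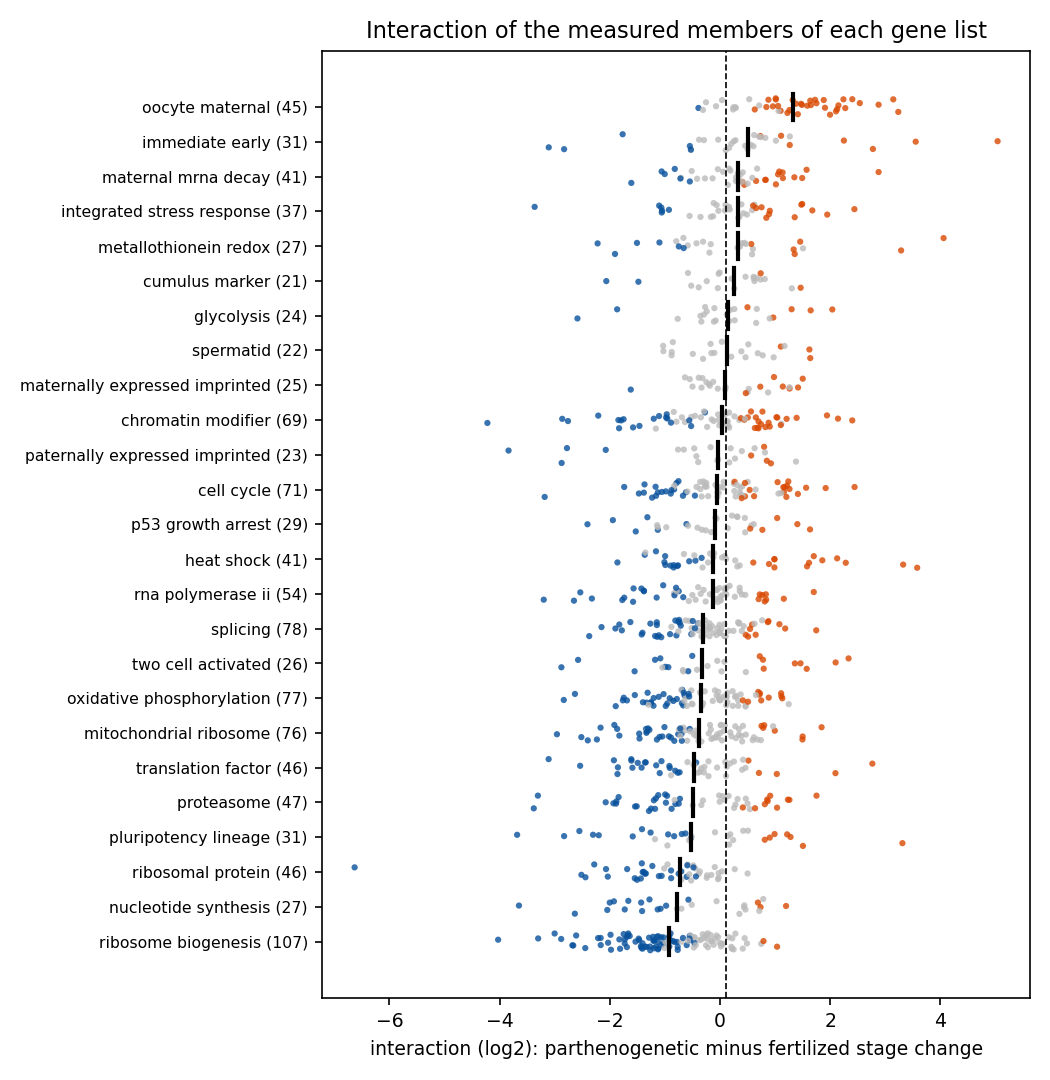
Interaction of each measured member (points, log2, horizontal) of 25 gene lists, ordered by their median (bars), with called positive members in orange, called negative in blue and the others in grey. The dashed line is the median of all genes (0.108), and the lists run from ribosome biogenesis (-0.92) to oocyte genes (1.32).

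Genes known for their expression in the 2-cell embryo were activated in parthenogenetic embryos as well. Of 26 measured, 18 rose in fertilized and 17 in parthenogenetic embryos (25.8% and 21.7% of all genes), by list medians of 2.46 and 2.92. In this list 9 interactions were negative and 8 positive (65.4% called, against 35.4% of all genes). That balance moved with the scaling, to 4 negative and 8 positive with values as deposited and to 11 and 6 with median centring. Zfp352, a zinc finger gene of the 2-cell stage, read 11.30, 11.16, 11.84 and 11.43 in fertilized and 12.91, 12.93, 12.90 and 12.90 in parthenogenetic 2-cell embryos. It was already higher in parthenogenetic 1-cell embryos, at 8.44 to 9.06 against 6.23 to 7.73 in fertilized ones. Its interaction of -0.42 (SE 0.36) was not called. Crxos, a homeobox gene, rose from between 3.02 and 4.63 to between 12.23 and 12.59 in fertilized embryos and from between 3.09 and 5.43 to between 10.91 and 11.34 in parthenogenetic embryos. Its interaction was -1.55 (SE 0.52, adjusted p = 0.016) and -1.01, not called, without parthenogenetic 1-cell replicate 1. Obox6, another homeobox gene, gave -1.08 (SE 0.40, adjusted p = 0.033) and lost the call in 8 settings, among them values as deposited.

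Pramel7, expressed in early embryos, read between 11.93 and 12.17 in fertilized and between 10.69 and 11.22 in parthenogenetic 2-cell embryos and was higher by 1.76 in parthenogenetic embryos at the 1-cell stage (interaction -2.88, SE 0.40). Dppa2, a regulator of 2-cell genes, rose from between 9.79 and 10.19 to between 12.26 and 12.63 in fertilized embryos, while the parthenogenetic arrays lay between 9.88 and 10.40 at both stages (interaction -2.58, SE 0.18, adjusted p = 3.9e-14). Eif1a (-1.18) and Dppa4 (-0.94) were negative, Eif1a without a call for values as deposited. Obox2 (2.34), Arg2 (2.10), Obox5 (1.58), Tcstv1 (1.46) and Ddit4l (1.36) were positive. A positive value need not be a rise. Arg2 read 11.60 to 12.21, then 9.77 to 9.94 in fertilized embryos, and lay between 10.67 and 10.92 on the parthenogenetic arrays of both stages. In the whole list 7 members fell in fertilized and 5 in parthenogenetic embryos (34.2% and 27.4% of all genes).

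Among 31 pluripotency and lineage genes measured, 13 were negative and 7 positive (64.5% called, against 35.4% of all genes), with a median of -0.53. Sox2, a core factor of the inner cell mass, read 6.55, 6.81, 6.49 and 6.32 in parthenogenetic 1-cell and 9.35, 8.68, 9.35 and 9.19 in parthenogenetic 2-cell embryos. In fertilized embryos it fell from 6.80, 7.04, 6.56 and 7.50 to 5.80, 6.48, 6.84 and 5.93, with some overlap (interaction 3.31, SE 0.41, adjusted p = 1.6e-08). Pou5f1, or Oct4, fell by 1.03 in fertilized embryos and was higher on all 4 parthenogenetic 2-cell arrays, at 10.73, 10.78, 10.76 and 11.16 against 8.94 to 9.33 (interaction 1.28, SE 0.15). At the 1-cell stage it read 10.56 to 10.66 in parthenogenetic and 9.77 to 10.30 in fertilized embryos. Prdm14 gave -3.68 (SE 0.53), being higher in parthenogenetic 1-cell and lower in parthenogenetic 2-cell embryos, with fertilized arrays moving from between 3.54 and 4.03 to between 6.67 and 7.20. Tead4, which specifies trophectoderm, read between 8.06 and 8.28 in fertilized and 4.44, 6.50, 5.01 and 6.31 in parthenogenetic 2-cell embryos (interaction -2.20, SE 0.55). Nr5a2 (-2.55) and Klf2 (-2.83) were also negative, and Tbx3 (1.51) positive.

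Chromatin genes went both ways, with 22 positive and 19 negative of 69 (59.4% called, against 35.4% of all genes) and a median of 0.03. Median centring gave 10 and 24. Kat2b, a histone acetyltransferase, rose from between 3.43 and 5.24 to between 9.09 and 9.32 in fertilized embryos, while parthenogenetic arrays lay between 5.20 and 6.12 at both stages (interaction -4.22, SE 0.43). A second probe set kept for Kat2b gave 0.08. Sirt1, a deacetylase, rose by 2.28 in fertilized embryos and fell by 0.58 in parthenogenetic embryos, whose 2-cell arrays read 9.10, 9.28, 9.61 and 8.98 against 11.54 to 11.85 (interaction -2.86, SE 0.21, adjusted p = 8e-14). Cbx1 (2.40), a heterochromatin protein, Zfp57 (2.14), which keeps methylation at imprinted regions, and Uhrf1 (1.94), a partner of Dnmt1, fell less in parthenogenetic embryos. Dnmt1 itself gave 0.75, called in 13 of 27 settings.

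The cell cycle list had 18 positive and 19 negative interactions among 71 genes (52.1% called, against 35.4% of all genes), and 12 and 26 with median centring. Cdk4, a kinase of the G1 phase, rose from between 5.30 and 6.17 to between 7.55 and 7.99 in fertilized embryos and fell from between 5.83 and 5.94 to between 4.38 and 5.02 in parthenogenetic embryos (interaction -3.18, SE 0.45), by a probe set type that can cross-hybridize, with -1.49 and -2.31 for its other probe sets. Bub1b (2.45), a spindle checkpoint kinase, Orc5 (1.92) and Wee1 (1.56) were positive. Bub1b differed at the 1-cell stage, at 10.15 to 10.92 in fertilized and 8.17 to 8.56 in parthenogenetic embryos. Its 2-cell arrays overlapped, at 8.44 to 8.66 against 8.52 to 8.82. In the integrated stress response list, 12 of 37 were positive and 6 negative (48.6% called), but 8 and 8 with median centring. Ddit3, or CHOP, read 8.91, 8.62, 8.58 and 8.12 in parthenogenetic 2-cell embryos against 6.79, 6.71, 6.40 and 6.49, having fallen in fertilized and risen in parthenogenetic embryos (interaction 2.44, SE 0.42, adjusted p = 8.9e-06). Psat1, an enzyme of serine synthesis, gave -3.36 (SE 0.53), rising from between 3.13 and 5.59 to between 11.81 and 12 in fertilized embryos and from between 6.39 and 6.51 to between 10.14 and 10.37 in parthenogenetic embryos. Trib3 gave -0.06 and was not called. Of 29 p53 and growth arrest genes 6 were negative, Cdkn1a (-1.32) and Apaf1 (-2.40) among them, and 5 positive. Values as deposited gave 4 and 6, and median centring 9 and 3. The share of this list called, 37.9%, was near the 35.4% of all genes. In glycolysis 5 of 24 were positive and 2 negative (29.2% called, also near the share of all genes), and 4 and 4 with median centring. The glucose transporter Slc2a1 gave 2.04 and hexokinase Hk1 -2.59. The 54 RNA polymerase II genes measured gave 17 negative and 8 positive interactions (46.3% called), with the elongation factor Ell2 at -3.20 and the general factor Gtf2b at 1.70.

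Large negative interactions also lay outside the lists. Norad, a long noncoding RNA that binds Pumilio proteins, read 11.58, 11.67, 11.62 and 11.92 in fertilized and 7.92, 7.26, 7.98 and 7.85 in parthenogenetic 2-cell embryos, and it rose in both, by 4.99 and 0.73 (interaction -4.26, SE 0.27, adjusted p = 1.1e-15). Its other probe sets gave -1.30 and -1.68. Cinp (-5.23), a partner of CDK2, and Atxn10 (-4.67) rose in fertilized and fell in parthenogenetic embryos. Smim13 (-4.80) and Tmx1 (-4.40), a thioredoxin-like protein of the endoplasmic reticulum, rose in fertilized embryos and were not called in parthenogenetic embryos. Gpatch4, a nucleolar protein, read between 8.79 and 8.98 in fertilized and 4.39, 5.88, 3.97 and 4.91 in parthenogenetic 2-cell embryos (interaction -4.20, SE 0.45), and its other probe sets gave -2.32 and -2.02. Slc25a36 (-3.78), a mitochondrial carrier, rose by 3.73 in fertilized embryos against -0.05, not called. Genes that fell in parthenogenetic embryos without a called change in fertilized embryos included Srfbp1 (-3.33) and the Hedgehog factor Gli2 (-2.81).

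Markers of other cells were given by 3 lists. Of 21 cumulus cell markers measured, 2 were positive and 2 negative, and the mean level of the list ran from 5.45 to 5.79 in fertilized and from 5.43 to 5.56 in parthenogenetic 1-cell embryos, and from 5.74 to 6.06 and 5.83 to 6.12 at the 2-cell stage. The negative members were Gja1 (-2.06) and Amhr2 (-1.48), which rose between the stages in both origins. Of 22 spermatid markers 3 were positive, Odf2, Spaca3 and Gapdhs, and none negative, and of 10 blood markers 1 was negative. The spermatid mean ran from 5.60 to 5.84 in fertilized and from 5.50 to 5.60 in parthenogenetic 1-cell embryos. At an unadjusted p under 0.05 limma gave 1 negative spermatid marker.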

How the data were processed

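Poly(A) RNA of each sample was extracted with PicoPure and labelled with Enzo biotin reagents for Affymetrix arrays, per the labels' protocols. The deposited values are the authors' linear signal intensity per probe set, already scaled between arrays by software not given in the sources used here. They were turned into log2 of the deposited intensity plus 6.9 (the 20th percentile of all values) and quantile normalized. Of 40 samples 1 had no values and was not analysed here. Of the probe sets, 34945 named 1 gene, 932 several and 9160 none in the platform annotation, and 0 symbols were updated. A probe set was kept if it lay above the overall median on at least 4 arrays, and each gene was represented by its probe set of highest mean, which left 14916 genes.

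limma 3.58.1 in R 4.3.3 fitted 10 group means over 39 arrays (29 residual degrees of freedom, moderated with a trend), and p-values were adjusted by Benjamini-Hochberg over all genes. Since all groups share 1 estimate of the spread, a group is assumed to vary like the others. Python 3.11.15, pandas 2.3.3, numpy 2.4.6, scipy 1.17.1 and matplotlib 3.10.9 were used for the rest, and control transcripts were compared with exact permutation tests. The number of arrays limits the precision. No pair of arrays held identical values.

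The members, lists and rules were chosen with earlier results of these data known. Genes named were the 12 most positive and 12 most negative stable interactions, up to 5 called members of each list in either direction and up to 2 not called, the largest of each pattern, and a set of known marker genes. Alternatives were the constant (1.8 or 22.1), the scaling (values as deposited, or median centring), the filter, averaging the probe sets of a gene, array weights, no trend, the 16 arrays alone, a replicate block and leaving out each array. On simulated data, the real interactions were removed and changes of 0.5, 1 and 2 log2 units were planted in 67, 67 and 66 of 14916 genes. Of these 5.97%, 35.82% and 78.79% were recovered, and 2.439% of 82 calls were false. In the data 35.4% of genes were called, so the adjusted limit differed and these shares do not carry over. Same-numbered replicates of different groups did not deviate together (correlations of -0.0691 to 0.0422), so numbers were not taken as pairs.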

Additional observations from a re-analysis of the deposited data

Results flagged for a closer look

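The stage change differed between parthenogenetic and fertilized embryos by the test of the difference itself for 5286 genes. Among the genes shown array by array, 10 had called stage changes in opposite directions in the 2 origins. The interaction was -3.84 for Mcts2, -2.87 for Gab1, -4.72 for Snhg14, -6.63 for Rps4l, -3.18 for Cdk4, -2.86 for Sirt1 and -4.20 for Gpatch4, all of which rose in fertilized and fell in parthenogenetic embryos. It was 2.44 for Ddit3, 3.31 for Sox2 and 1.28 for Pou5f1, which did the reverse.

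In 8 of 184 groups of 4 arrays, 1 array lay far from the other 3, which chance gives in about 1 in 20 groups. Single low values were those of Eif2s3y in parthenogenetic 2-cell embryos (2.87 against 2.97 to 2.99), Klf10 in fertilized 1-cell embryos (6.40 against 6.93 to 6.96), Hes1 in fertilized 2-cell embryos (4.61 against 5.66 to 5.79), Rps4l in parthenogenetic 1-cell embryos (6.04 against 6.32 to 6.35) and Nme1 in parthenogenetic 2-cell embryos (5.76 against 6.06 to 6.09). Pou5f1 had a single high value in parthenogenetic 2-cell embryos (11.16 against 10.73 to 10.78). The poly(A) control transcripts read 7.05 on 1 fertilized 1-cell array against 6.11 to 6.26, and the hybridization controls 10.3 on 1 parthenogenetic 2-cell array against 10.37 to 10.38.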

How the results depend on the processing

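Of 513 recomputed counts of 19 summary results, 509 stayed within 1.5 times the reported count and 4 did not, all with median centring: 1874 positive interactions (2949 in the report), 2122 genes higher at the parthenogenetic 2-cell stage (3238), 2435 genes higher in parthenogenetic 1-cell embryos (1620), and 1100 positive interactions among genes higher with amanitin (1819). Within that limit, 1-cell differences were still 4112 with array weights (3040 in the report), and genes higher at the parthenogenetic 2-cell stage 4572 with values as deposited. Of 1458 counts of called members of the gene lists, 105 moved by over 1.5 times. Of 1152 values of the 43 genes shown array by array, 1138 kept sign and call, 11 lost the call and 3 changed sign: Eif2s3y gave 0.06 without a filter, H13 -0.36 with the mean of probe sets, and Zp3 -0.05 with median centring. The alternatives' own construction shows the first 2, since other probe sets then stood for the gene; for Zp3 the cause was not tested. Leaving out 1 array gave 4973 to 5293 called interactions, 8595 to 8951 and 6887 to 7403 stage changes in fertilized and parthenogenetic embryos, and 2443 to 3252 and 6623 to 7123 differences at the 1-cell and 2-cell stages. With the replicate number as a block 5275 interactions were called (2938 positive, 2337 negative), though the numbers do not pair the samples. Of the called interactions, 79.1% kept call and sign with median centring, 82.2% with the mean of probe sets (11 were called with the opposite sign; of 2872 called genes with other probe sets, 66.4% had all of them of the same sign) and 91.8% with values as deposited. Signal near the overall median of 5.34 limits the size of the differences there.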
